A study of Mus musculus with 6 samples.

Results

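The nuclear genes of the mitochondrial respiratory chain and of ATP synthase were examined in whole pancreata 2 weeks after deletion of Ptf1a. Genes were taken by symbol from the deposited table, namely those beginning with Nduf, Uqcr, Cox4 to Cox8 or Atp5, together with Sdha to Sdhd and Cyc1. This gave 77 of the 10245 genes. Of these, 33 are subunits of complex I, 4 of complex II, 9 of complex III, 10 of complex IV and 13 of complex V. A further 6 are assembly factors of complex I, and the remaining 2 are Cox7a2l and Atp5s. Ndufa4 was counted with complex IV, where it is now placed. Cytochrome c (Cycs) and the subunits encoded by mitochondrial DNA were not analysed here.

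The respiratory chain sits in the inner mitochondrial membrane. Complex I takes electrons from NADH and complex II takes them from succinate, both pass them to coenzyme Q, and complex III hands them through cytochrome c to complex IV, which reduces oxygen. The proton gradient that this builds drives complex V, the ATP synthase. Acinar cells of the pancreas make and secrete digestive enzymes in large amounts, and much of their ATP comes from this route.

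The control mice carried Ptf1a(CreER/+) and the Ptf1a cKO mice Ptf1a(CreER/fl), with 3 mice in each group. CreERT replaces the coding sequence of 1 Ptf1a allele, so the control mice were functionally heterozygous, and recombination was limited to cells that express Ptf1a, which in the adult pancreas are acinar cells. All 6 mice received tamoxifen by gavage at 0.25 mg/g, in 3 doses on consecutive days, and were killed on day 14. The control group held 1 male and 2 females, as did the Ptf1a cKO group. The control mice were 4 months old and the Ptf1a cKO mice 5 months old, so age and genotype cannot be told apart. No model of the reads was possible, because the values are normalized counts that the authors had put on a common scale, and the scaling no longer shows the depth of each library. The p-values and SEs of the fold changes rest on the spread between 3 mice in each group. The variance of each gene was drawn by limma towards a trend over all genes.

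Ptf1a itself stood at 566, 601 and 652 normalized counts in the control libraries and at 19.8, 70.1 and 10.2 in the Ptf1a cKO libraries. An acinar list of digestive enzymes, secreted proteins and the transcription factors Bhlha15 and Rbpjl took 83.9% to 86.3% of the normalized counts in control libraries and 39.6% to 66.3% in Ptf1a cKO libraries. Of the 36 genes measured in that list, 27 were lower, 1 was higher and 8 did not pass the test (77.8% called, against 33.9% of all genes). Markers of other cells moved too. Fibroblast and stellate markers were higher in 6 of 7 genes, leukocyte markers in 3 of 4 and duct markers in 2 of 4, against 17.1% of all genes. The 2 duct genes were Sox9 and Spp1, whereas Krt19 and Krt7 did not pass (log2 fold changes -0.01 and 0.44). By limma 0 of 4 endothelial and 0 of 6 endocrine markers passed the test, and also 0 at an unadjusted p under 0.05. The endocrine values varied widely, with SEs of 0.66 to 0.87 on the log2 scale, so a 2-fold change in them could have been missed. In fat, 1 of 4 markers (Cfd) was higher. Of 3 listed gastric genes only Gif, the intrinsic factor gene, was measured. It had 404 to 671 normalized counts in controls and 17717 to 44073 in Ptf1a cKO, and no cell type is read from this 1 gene. Summed, the fibroblast markers lay between 2739 and 3066 normalized counts in controls and between 5224 and 9841 in Ptf1a cKO. The part of these cell types in the values of respiratory genes was not tested, and in whole tissue fewer cells of a type cannot be told apart from less RNA per cell.

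The respiratory genes changed little beside the acinar enzymes. Of the 77 genes, 17 (22.1%) differed between the groups at an adjusted p under 0.05 (limma, Benjamini-Hochberg over all 10245 genes), 5 of them higher and 12 lower in Ptf1a cKO. Over all genes 33.9% were called, 17.1% higher and 16.8% lower, so that the share of respiratory genes called was below the background. Not a single respiratory gene reached a 2-fold change, against 12.4% of all genes. The log2 fold change was within 0.5 of zero in 67 of the 77 genes (87.0%), compared with 65.7% of all genes. Its median was -0.11 over the 77 genes and 0.04 over all genes, and 52 genes had a negative value. The median of the 77 genes was -0.18 without Ptf1a cKO library 1 and -0.06 without Ptf1a cKO library 3. The groups did not overlap in 27 of the 77 genes, with Ptf1a cKO below control in 19 of them, and did not overlap in 50.8% of all genes. These directions are relative to the authors' scaling, which follows most genes. When every library was given the same total instead, the median of all genes moved to 1.49 and all 77 genes were called higher, with the respiratory median 0.11 below that of all genes.

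**Figure D1:**
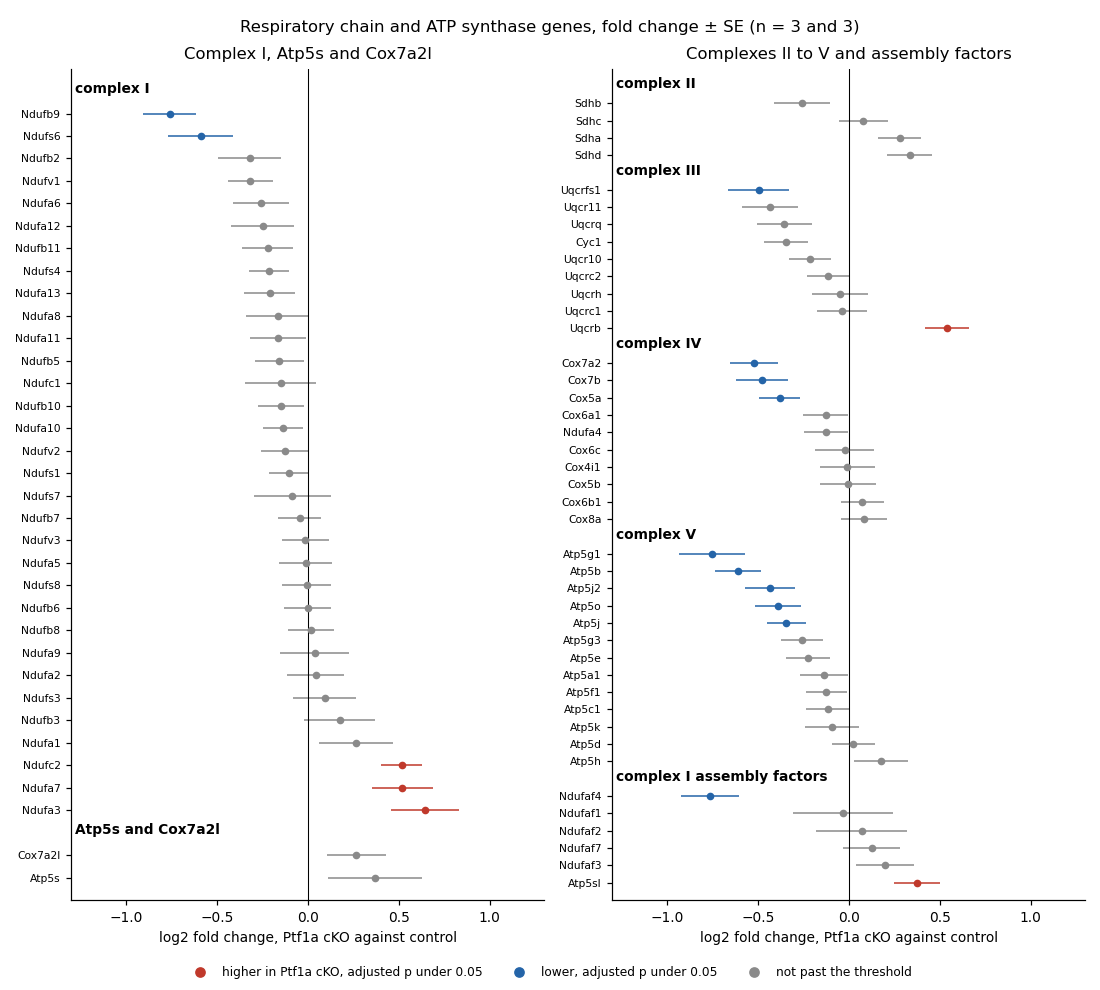
Log2 fold change of the genes reported here (x axis, Ptf1a cKO against control, points with SE, n = 3 and 3), grouped by complex and ordered by value. Blue and red mark genes lower and higher at an adjusted p under 0.05, and complexes III and V lean to the left, whereas the 4 genes of complex II stay grey.

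Complex V, the ATP synthase, held the most genes that were lower. Of its 13 measured genes, 5 were lower, 0 were higher and 8 did not pass the test. The share called, 38.5%, was near the 33.9% of all genes. Within the complex, log2 fold changes had a median of -0.22. At an unadjusted p under 0.05 by limma, 0 genes of complexes IV and V were higher. Atp5b, the catalytic beta subunit, had 4793, 4925 and 4855 normalized counts in control libraries and 3235, 3391 and 2939 in Ptf1a cKO libraries. The groups lay far apart beside the spread within them, and the log2 fold change was -0.61 ± 0.13 (SE, n = 3 and 3; adjusted p = 0.00672). In GRCm38 Atp5b lies at chr10:128083273-128090391 on the plus strand. Its partner in the catalytic head, the alpha subunit Atp5a1, had 3308, 3334 and 2807 normalized counts in control libraries and 3074, 2820 and 2693 in Ptf1a cKO libraries. These values overlapped, and the log2 fold change of Atp5a1 was -0.14 ± 0.13 (95% interval -0.43 to 0.16). The ratio of Atp5b to Atp5a1 was therefore lower in Ptf1a cKO, at 1.05, 1.20 and 1.09 against 1.45, 1.48 and 1.73 in controls. This ratio and the others below were chosen after the values were seen and are given as descriptions. Exons of Atp5a1 lie over exons of an antisense gene, Haus1.

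The c-ring of complex V, which turns as protons pass, is built from a protein encoded by several genes. Atp5g1, a gene for that protein, had 79.9, 88.3 and 62.0 normalized counts in control libraries and 45.7, 37.8 and 48.6 in Ptf1a cKO libraries. The highest Ptf1a cKO value was below the lowest control value, and the log2 fold change was -0.75 ± 0.18 (SE, adjusted p = 0.013). Atp5g3, which encodes the same mature protein, had 1049, 953 and 904 normalized counts in controls and 826, 859 and 749 in Ptf1a cKO. Its log2 fold change was -0.26 ± 0.12 and did not pass the test (adjusted p = 0.116). Per kilobase of transcript the control levels were 129 normalized counts for Atp5g1 and 1357 for Atp5g3, or 15.6 and 1338 with the union of all exons as the length. Of the 50-base stretches of Atp5g1 transcripts, 11.1% were shared with transcripts of other genes.

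Among the peripheral stalk genes, which hold the head still against the rotor, Atp5o and Atp5j were lower. Atp5j had 581, 552 and 520 normalized counts in control libraries and 445, 448 and 407 in Ptf1a cKO libraries, a log2 fold change of -0.34 ± 0.11 (adjusted p = 0.0346). Atp5o had 490, 445 and 465 normalized counts in controls and 403, 362 and 308 in Ptf1a cKO, with a log2 fold change of -0.39 ± 0.13 (adjusted p = 0.0402). Both had non-overlapping groups. The other 2 stalk genes, Atp5h and Atp5f1, did not pass the test, at log2 fold changes of 0.18 and -0.12. Atp5j2, a membrane subunit, had 423, 409 and 472 normalized counts in controls and 372, 327 and 270 in Ptf1a cKO, a log2 fold change of -0.43 ± 0.14 (adjusted p = 0.0384). Atp5o and Atp5j2 complete the called genes of the complex and were named after their values were seen. Exons of Atp5j and Atp5o lie over exons of antisense genes (Gabpa and D430001F17Rik), as do those of Atp5f1 (Wdr77 and Gm42890). Whether reads were counted by strand is not given in the sources used here. Shared 50-base stretches made up 25.6% of Atp5o, 36.9% of Atp5h and 22.5% of Atp5f1. The central stalk genes Atp5c1, Atp5d and Atp5e lay between -0.22 and 0.02.

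Complex III had 1 lower and 1 higher gene of 9 (22.2% called, against 33.9% of all genes). Its median log2 fold change was -0.21, with 8 of the 9 values negative. The Rieske iron-sulfur protein gene Uqcrfs1, an electron carrier of the complex, had 674, 639 and 939 normalized counts in control libraries and 586, 540 and 455 in Ptf1a cKO libraries. Control library 3 stood high, the groups did not overlap, and the log2 fold change was -0.49 ± 0.17 (adjusted p = 0.0471). Without control library 3 the log2 fold change of Uqcrfs1 was -0.32. Cyc1, the cytochrome c1 gene, had 799, 764 and 649 normalized counts in controls and 597, 600 and 538 in Ptf1a cKO. Those groups did not overlap either, but the log2 fold change of -0.35 ± 0.12 did not pass the test (adjusted p = 0.0526).

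Uqcrb, an accessory subunit gene of complex III, went the other way. It had 109, 113 and 119 normalized counts in control libraries and 185, 154 and 163 in Ptf1a cKO libraries, a log2 fold change of 0.54 ± 0.12 (adjusted p = 0.00828). The groups lay apart, and the ratio of Uqcrb to Uqcrfs1 was 0.315, 0.285 and 0.358 in Ptf1a cKO against 0.162, 0.177 and 0.127 in controls. The value of Uqcrb is uncertain, since 43.2% of its 50-base stretches are shared with transcripts of other genes and an antisense gene overlaps its exons. The core proteins Uqcrc1 and Uqcrc2 had log2 fold changes of -0.04 and -0.11 with overlapping groups.

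Complex IV, cytochrome c oxidase, had 3 lower genes and 0 higher genes of 10 (30.0% called, against 33.9% of all genes). Its median log2 fold change was -0.07. That median was -0.16 without Ptf1a cKO library 1 and 0.0049 without Ptf1a cKO library 3, where its sign turned. Cox7a2, a small membrane subunit gene, had 352, 412 and 370 normalized counts in control libraries and 303, 251 and 235 in Ptf1a cKO libraries, a log2 fold change of -0.52 ± 0.13 (adjusted p = 0.0145). Cox7b, another small subunit gene, had 505, 459 and 460 normalized counts in controls and 415, 324 and 292 in Ptf1a cKO, a log2 fold change of -0.48 ± 0.14 (adjusted p = 0.0297). In each of these genes the first Ptf1a cKO library lay nearest to the controls. Cox5a had 335, 390 and 339 normalized counts in controls and 264, 289 and 261 in Ptf1a cKO, with a log2 fold change of -0.38 ± 0.11 (adjusted p = 0.0296). An antisense gene, Gm26631, overlaps exons of Cox5a. The other 7 genes had log2 fold changes between -0.13 and 0.08. Cox4i1, the ubiquitous form of subunit 4, had the highest level of them per kilobase and stood at 1322, 1342 and 1045 normalized counts in controls and 1417, 1221 and 1056 in Ptf1a cKO. Its log2 fold change was -0.01, with a 95% interval of -0.35 to 0.34.

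**Figure D2:**
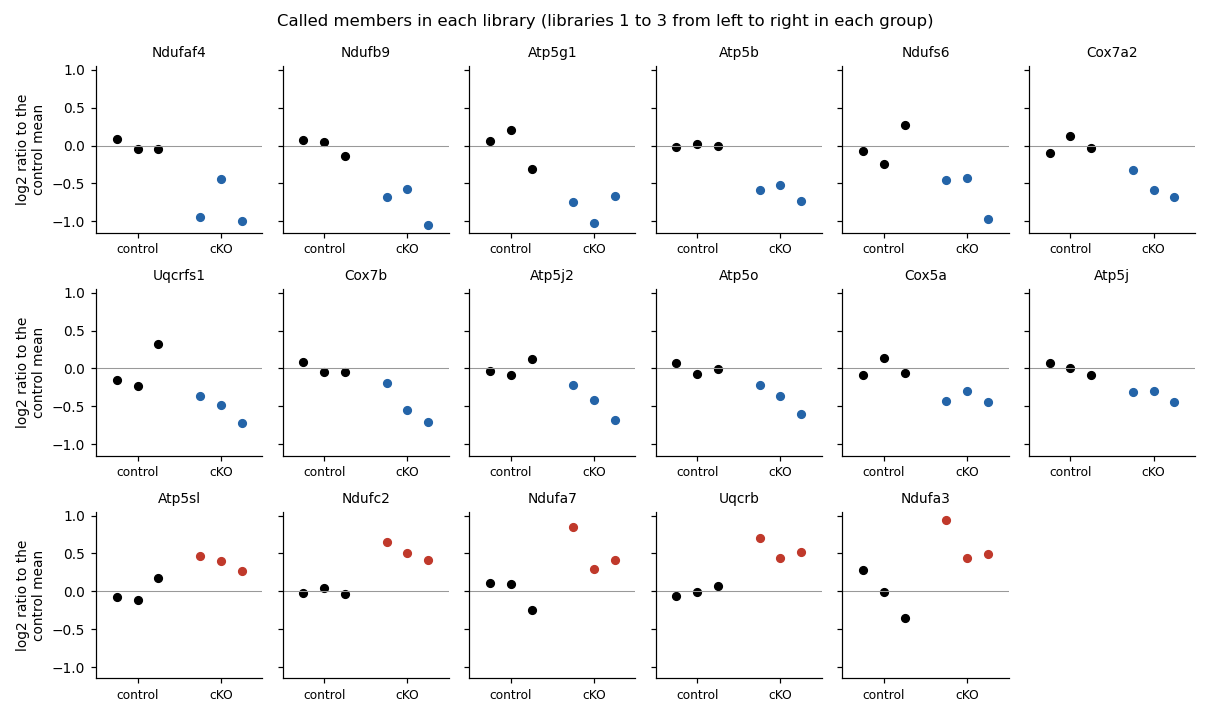
The 17 called genes in each library (y axis, log2 ratio to the control mean, libraries 1 to 3 from left to right within each group). The groups do not overlap in any of the 17 genes, with Ptf1a cKO lower in 12 (blue) and higher in 5 (red). The 17 genes were chosen by the test on these same values, so their separation adds no support. The groups did not overlap in 50.8% of all genes.

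Complex I, the NADH dehydrogenase and the largest complex, had 3 higher and 2 lower genes of 33 (15.2% called, against 33.9% of all genes). Its median log2 fold change was -0.10, which was -0.17 without Ptf1a cKO library 1 and -0.013 without control library 1. The 7 measured core subunits, which carry the flavin, the iron-sulfur clusters and the quinone site, had 0 genes past the threshold by limma, and 1 of the 7 (Ndufv1) had an unadjusted p under 0.05. Ndufv1, which binds NADH, had 680, 702 and 605 normalized counts in control libraries and 540, 586 and 471 in Ptf1a cKO libraries. The groups of Ndufv1 did not overlap, and its log2 fold change was -0.32 ± 0.12 (adjusted p = 0.0755). Among the other core subunits, Ndufv2 and Ndufs1 had log2 fold changes of -0.13 and -0.10, with overlapping groups.

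All called genes of complex I were accessory subunits, 5 of 26 (19.2%, against 33.9% of all genes). Accessory subunits make up 26 of its 33 genes, and whether they differ from the core subunits was not tested. Ndufb9 had 1380, 1357 and 1192 normalized counts in control libraries and 822, 882 and 634 in Ptf1a cKO libraries. Its log2 fold change was -0.76 ± 0.15 (adjusted p = 0.00442), the smallest adjusted p of the 77 genes. In GRCm38 it lies at chr15:58933756-58939488 on the plus strand. Another membrane-arm subunit gene, Ndufb8 on chromosome 19, was picked for comparison after the values were seen and overlapped between groups. The ratio of Ndufb9 to Ndufb8 was 1.35, 1.63 and 1.31 in Ptf1a cKO against 2.56, 2.75 and 2.06 in controls. Ndufs6 had 228, 202 and 288 normalized counts in controls and 174, 178 and 123 in Ptf1a cKO, a log2 fold change of -0.59 ± 0.18 (adjusted p = 0.0333). Exons of Ndufs6 lie over the antisense gene Mrpl36, and those of Ndufb9 share bases with a gene on the same strand, Gm49356.

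The 3 higher genes of complex I were Ndufa3, Ndufa7 and Ndufc2. Ndufc2 had 167, 175 and 165 normalized counts in control libraries and 266, 241 and 225 in Ptf1a cKO libraries. The controls of Ndufc2 lay close together, and the log2 fold change was 0.52 ± 0.11 (adjusted p = 0.0077). Ndufa3 had 246, 200 and 158 normalized counts in controls and 388, 274 and 285 in Ptf1a cKO, a log2 fold change of 0.64 ± 0.19 (adjusted p = 0.0269). Ndufa7 had 185, 183 and 144 normalized counts in controls and 307, 209 and 228 in Ptf1a cKO, a log2 fold change of 0.52 ± 0.17 (adjusted p = 0.0389). In both Ndufa3 and Ndufa7 the first Ptf1a cKO library was the highest and the third control library the lowest. An antisense gene, Tfpt, overlaps exons of Ndufa3.

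Complex II, succinate dehydrogenase, is encoded wholly in the nucleus and also serves the citric acid cycle. By limma 0 of its 4 genes passed the threshold, while 2 (Sdha and Sdhd) had an unadjusted p under 0.05. Sdhd, a membrane anchor, had 391, 436 and 340 normalized counts in control libraries and 519, 483 and 468 in Ptf1a cKO libraries, a log2 fold change of 0.34 ± 0.12 (adjusted p = 0.0621). Sdha, the flavoprotein, had 996, 1046 and 898 normalized counts in controls and 1259, 1094 and 1218 in Ptf1a cKO, a log2 fold change of 0.28 ± 0.12 (adjusted p = 0.0948). In both, the lowest Ptf1a cKO value exceeded the highest control value, though the groups did not overlap in 50.8% of all genes either. Sdhb, the iron-sulfur subunit, had 912, 873 and 642 normalized counts in controls and 750, 638 and 627 in Ptf1a cKO, with overlapping groups and a log2 fold change of -0.26 ± 0.15. The ratio of Sdhb to Sdha was 0.596, 0.583 and 0.515 in Ptf1a cKO and 0.916, 0.834 and 0.715 in controls.

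Of the 6 assembly factors of complex I, Ndufaf4 was lower and Atp5sl was higher (33.3% called, against 33.9% of all genes). Ndufaf4 had 156, 143 and 142 normalized counts in control libraries and 76.8, 109 and 74.2 in Ptf1a cKO libraries, a log2 fold change of -0.76 ± 0.16 (adjusted p = 0.00641). The second Ptf1a cKO library was the least affected. Atp5sl, named Dmac2 in newer annotation, had 108, 105 and 128 normalized counts in controls and 157, 150 and 137 in Ptf1a cKO, a log2 fold change of 0.37 ± 0.13 (adjusted p = 0.0466). Ndufaf1, Ndufaf2, Ndufaf3 and Ndufaf7 had log2 fold changes between -0.03 and 0.20, with overlapping groups.

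Promoters were read from RefSeq (GRCm38.p6) for 65 of the 77 genes, in 71 windows of 300 bases from 250 before to 50 after the start, and searched on both strands for the motifs of factors known to control respiratory genes. NRF1 (GCATGCGC) was found in 12.7% of these windows, against 5.27% of windows of genes in the table and 2.71% of all windows. The ETS motif (CCGGAAG) was found in 22.5%, 18.02% and 8.86% of these, and YY1 (AAGATGGC) in 16.9%, 4.61% and 2.75%. The NRF1 motif was in 1 of 12 windows of lower genes, 0 of 6 windows of higher genes and 8 of 53 windows of genes that were not called. YY1 was in 3, 3 and 6 of these and ETS in 1, 0 and 15, and the 6 windows of higher genes come from 4 genes. The 150 bases before the start are shown for Ndufaf4, the gene with the lowest log2 fold change, and for Ndufc2, a higher gene, picked after its values were seen, in which none of these letters were found. Capitals in Ndufaf4 mark a pair of overlapping NRF1 matches, which lie on opposite strands because the stretch is a palindrome. The stretch before Ndufaf4 is chr4:24897933-24898082 and that before Ndufc2 is chr7:97399853-97400002, both on the plus strand.
Ndufaf4: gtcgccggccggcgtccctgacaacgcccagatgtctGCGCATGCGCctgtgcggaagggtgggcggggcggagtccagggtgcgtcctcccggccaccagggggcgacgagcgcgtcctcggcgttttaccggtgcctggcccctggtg
Ndufc2: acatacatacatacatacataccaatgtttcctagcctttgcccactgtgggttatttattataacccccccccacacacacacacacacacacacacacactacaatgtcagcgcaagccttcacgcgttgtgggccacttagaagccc

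The libraries differed in level across the whole set of genes. Among the Ptf1a cKO libraries, the first held the highest value in 59 of the 77 genes and the third the lowest in 61, against 30.8% and 35.4% of all genes. The sum of the 77 genes was 39524, 38755 and 36702 normalized counts in control and 37313, 33763 and 30738 in Ptf1a cKO. By complex, the mean log2 deviation from the control mean in the Ptf1a cKO libraries was -0.14, -0.25 and -0.37 for complex V, below all 3 control libraries. For complex III it was -0.027, -0.14 and -0.33, also below all 3 controls (0.0087, -0.021 and 0.012), though narrowly in the first library. For complex I it was 0.14, -0.10 and -0.21, which spans the controls (0.09, 0.02 and -0.11). The third Ptf1a cKO library also had the lowest acinar share (39.6%) and the highest sum of leukocyte markers (1783 normalized counts), but the part of these in the respiratory values was not tested.

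**Figure D3:**
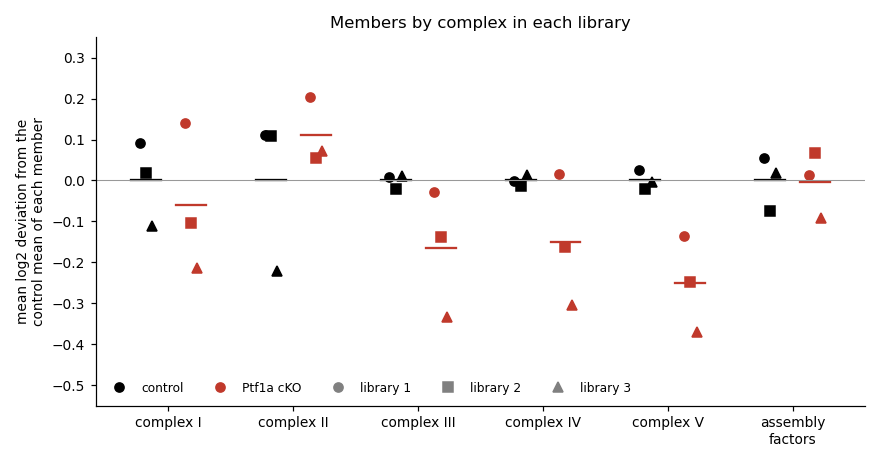
Mean log2 deviation of the genes of each complex from their control mean (y axis), for each control library (black) and Ptf1a cKO library (red), with the group mean as a line and the library number as the symbol. For complexes III and V every Ptf1a cKO library sits below every control library, for complex V at -0.14, -0.25 and -0.37. For complex I the Ptf1a cKO libraries span the controls.

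Levels were compared between genes per kilobase of transcript, in normalized counts divided by the length of the shortest principal protein-coding transcript in GRCm38. This length was chosen after an order by the union of all exons had been seen, in which long alternative transcripts placed a few genes low. Atp5b stood at 2535 ± 35 (SD, n = 3) in controls and Uqcrq, a small complex III subunit gene named after its values were seen, at 2536 ± 99, and these top levels did not differ beyond their spread. With the union of exons Atp5b was first and Uqcrq 19th. Ndufb9 followed at 1861 ± 146 and was 8th in Ptf1a cKO, at 1107 ± 184. Atp5s was lowest at 14.9. The median of complex IV was 641 per kilobase in controls and that of complex I 352, whereas the complex I assembly factors had a median of 39.0, the highest of them at 47.6. With the union of exons the medians of complexes I, IV and V were 269, 562 and 494, in place of 352, 641 and 567.

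**Figure D4:**
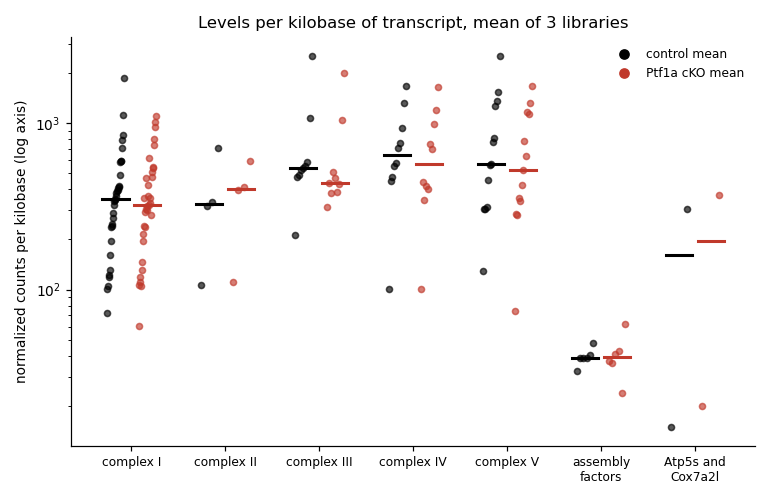
Mean level of each gene (y axis, normalized counts per kilobase of transcript, log axis) by complex, in control (black) and Ptf1a cKO (red), with the median of each complex as a line. The assembly factors sit near 39.0, below the medians of all 5 complexes.

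Other mitochondrial genes were counted from fixed lists. Of 29 measured assembly factors outside the set, 2 were higher and 6 lower. The share called, 27.6%, was below the 33.9% of all genes. Cox17, the copper chaperone of complex IV, had 205, 199 and 198 normalized counts in control libraries and 481, 439 and 332 in Ptf1a cKO libraries, a log2 fold change of 1.03 ± 0.14 (adjusted p = 0.00101). Coa3, an early assembly factor of the same complex, had 534, 459 and 690 normalized counts in controls and 319, 302 and 222 in Ptf1a cKO, a log2 fold change of -0.99 ± 0.18. The ratio of Cox17 to Coa3 was 1.505, 1.454 and 1.497 in Ptf1a cKO and 0.384, 0.434 and 0.286 in controls. Cox15, which makes heme A, fell by 0.83 on the log2 scale.

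Of 11 regulators of mitochondrial biogenesis, 4 were lower and 0 higher by limma, and 0 were higher at an unadjusted p under 0.05. The share called, 36.4%, was near the 33.9% of all genes. Ppara, a nuclear receptor for fatty acids, had 132, 133 and 126 normalized counts in controls and 36.7, 52.6 and 45.1 in Ptf1a cKO, a log2 fold change of -1.48 ± 0.15. Pprc1 and Ppard had log2 fold changes of -1.15 and -0.64, and the coactivator Ppargc1a, at low counts of 33.9 to 52.0 in controls, of -0.84 ± 0.25 (adjusted p = 0.0281). Of 11 genes of coenzyme Q synthesis, 5 were lower and 1 higher (54.5% called). Coq10a, which binds coenzyme Q, fell by 1.25 and Adck3 by 0.99 on the log2 scale, while Coq7 rose with a log2 fold change of 0.77.

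Among 11 other entry points and regulators, 5 were higher and 1 lower (54.5% called, against 33.9% of all genes). Ucp2, an uncoupling protein of the inner membrane, had 141, 94.9 and 183 normalized counts in controls and 435, 324 and 681 in Ptf1a cKO, a log2 fold change of 1.74 ± 0.29. Gpd2, which feeds electrons from glycerol phosphate to coenzyme Q, had a log2 fold change of 0.98, and Atpif1, the inhibitor of ATP synthase, of 0.82 ± 0.14. Ucp2 is also expressed by leukocytes, whose marker sum was 288 to 510 normalized counts in controls and 777 to 1783 in Ptf1a cKO, and the part of this in the value of Ucp2 was not tested. Of 12 genes of mitochondrial DNA maintenance and transcription, 2 were higher and 1 lower (25.0% called, below all genes). Of 14 markers of mitochondrial mass, 3 were lower and 1 higher (28.6% called, also below all genes). Citrate synthase (Cs) had a log2 fold change of 0.03.

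**Figure D5:**
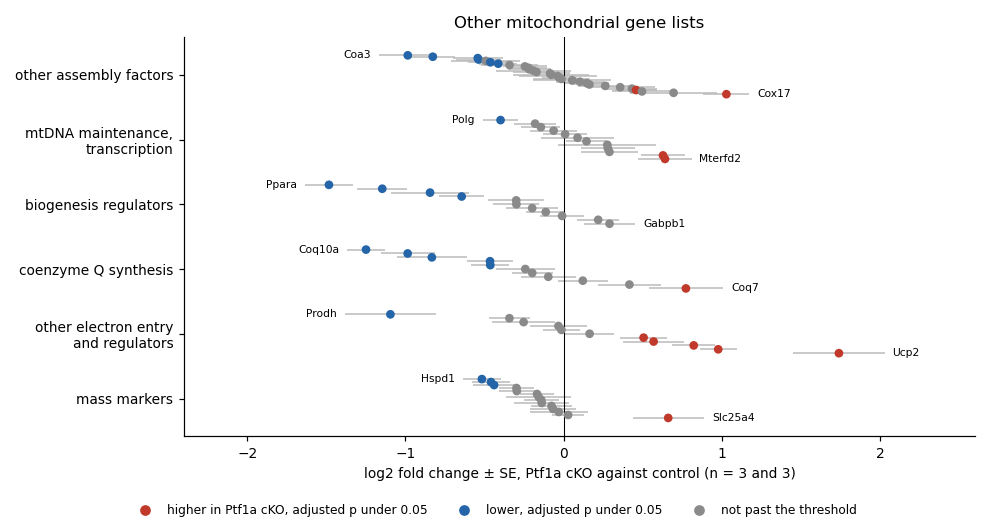
Log2 fold change of other mitochondrial genes (x axis, points with SE, n = 3 and 3) in 6 lists, with the lowest and the highest gene of each list named. Of the 11 regulators of biogenesis 4 are marked lower, and Ucp2 stands furthest to the right at 1.74.

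The calls differed in how far they rested on single libraries. Atp5b, Ndufb9, Ndufaf4, Ndufc2 and Uqcrb passed the test in all 6 fits that left out a library. Cox7a2 failed it without control library 2 (adjusted p = 0.0623), and Atp5g1 without control library 1 (adjusted p = 0.0516) or 2 (adjusted p = 0.0602). Uqcrfs1 failed in all 6 such fits, with adjusted p up to 0.137. Ndufa3 failed without control library 2 or 3 or Ptf1a cKO library 1, and Ndufs6 without control library 1 or 3 or Ptf1a cKO library 3. Cox5a and Atp5j failed without control library 1 or 2 or Ptf1a cKO library 1 or 3. Atp5j2, Atp5o and Cox7b passed only without Ptf1a cKO library 1, Ndufa7 only without Ptf1a cKO library 2 and Atp5sl only without control library 3. Cyc1 and Sdhb passed without control library 3 (adjusted p = 0.0253 and 0.0423), as did Ndufv1 without Ptf1a cKO library 2 (adjusted p = 0.0444). Without the first Ptf1a cKO library Ndufa3 fell to a log2 fold change of 0.49 and Ndufa7 to 0.36, and without Ptf1a cKO library 3 Ndufs6 went to -0.42. Under a scaling to the same total without acinar genes, the calls of Ndufc2 (log2 fold change 0.33), Ndufa3 (0.46), Ndufa7 (0.33) and Atp5sl (0.19) were lost. That scaling moved the median of all genes to -0.15, and the respiratory median lay at -0.15 relative to it, both there and under the authors' scaling.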

How the data were processed

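RNA was sequenced by the authors from whole pancreata of 3 control and 3 Ptf1a cKO mice. The authors deposited 1 table of normalized read counts, a signal per gene and library that the authors scaled across libraries, with decimals and no step from which reads could be recovered. The scaled values no longer show the depth of each library, and counting error could not be given. The submitters' processing notes name TopHat2 2.0.4, Bowtie 0.12.7.0, SAMtools 0.1.18.0, HTSeq 0.6.0 and build mm9, and the paper names edgeR with TMM. Strand setting, annotation and filter are not given in the sources used here. The 3 entries without a gene (75.7% to 82.6% of a library's values) were left out.

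Values were divided by 13.6, and log2(value + 0.25) was taken (3.41 normalized counts), a scale that understates changes of low genes. Genes with a mean under 0.25 would have been removed, and 0 were. Groups were compared in R 4.3.3 by limma 3.58.1 without covariates, with a trend of variance on mean, two-sided, with Benjamini-Hochberg adjustment over 10245 genes and a threshold of 0.05. An exact permutation test of 3 against 3 cannot go below 0.10. The fit was tested on simulated data. Tables were made in Python 3.11.15 with pandas 2.3.3. Positions, lengths and promoters are those of GRCm38, matched by symbol, and no coordinates were converted.

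Genes were named as the most significant calls and the extremes of each complex, core subunits and subunits with a paralog, and at most 3 called genes from each other list. Exceptions are stated where they occur. The plot of fold changes leaves out 1 member, which is not reported here. The members and lists were chosen with earlier results of these data known. Alternatives were other pseudocounts, filters, scalings, models, a replicate block, sex as a covariate, a threshold of 0.01 and each library left out.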

Additional observations from a re-analysis of the deposited data

How the results depend on the processing

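Pseudocounts of 0.05 and 1 and the filters on low values changed no call of a named gene. Scaling every library to the same total turned the direction of the respiratory genes, with 77 called higher and 0 lower. The median log2 fold change became 1.38 over all of them, 1.38 for complex I, 1.67 for complex II, 1.26 for complex III, 1.40 for complex IV, 1.27 for complex V and 1.49 for the assembly factors. Under it the log2 fold change was 1.36 for Atp5a1, 0.89 for Atp5b, 1.38 for Atp5c1, 0.67 for Atp5g1, 1.24 for Atp5g3, 1.14 for Atp5j, 1.05 for Atp5j2, 1.10 for Atp5o, 1.49 for Cox4i1, 1.10 for Cox5a, 1.44 for Cox5b, 1.36 for Cox6a1, 0.96 for Cox7a2, 1.01 for Cox7b and 1.15 for Cyc1. It was 1.36 for Ndufa4, 0.69 for Ndufaf4, 0.73 for Ndufb9, 1.38 for Ndufs1, 0.88 for Ndufs6, 1.40 for Ndufs7, 1.48 for Ndufs8, 1.17 for Ndufv1, 1.36 for Ndufv2, 1.24 for Sdhb, 1.46 for Uqcrc1, 1.38 for Uqcrc2, 1.00 for Uqcrfs1 and 1.14 for Uqcrq. Most values lay below the median of all genes, which that scaling moved to 1.49. With the same total without acinar genes 1 was higher and 21 lower, with medians of -0.30 over all, -0.29, -0.0083, -0.40, -0.26 and -0.41 for complexes I to V and -0.076 for the assembly factors. The 75th percentile gave 6 higher and 8 lower genes and medians of -0.057 for complex I, -0.027 for complex IV and 0.14 for the assembly factors, and moved the median of all genes to 0.081. Without a trend 3 were higher and 6 lower, with sex as a covariate 3 were higher and 9 lower, and at an adjusted p under 0.01 there were 2 higher and 3 lower. The causes were not tested.

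Leaving out each library gave 2 to 4 higher and 4 to 10 lower genes, and medians from -0.18 to -0.06 over all genes of the set, from -0.17 to -0.013 for complex I, from 0.085 to 0.24 for complex II, from -0.28 to -0.15 for complex III, from -0.16 to 0.0049 for complex IV, from -0.27 to -0.15 for complex V and from 0.087 to 0.16 for the assembly factors. With the replicate block 4 were higher and 10 lower. The correlations of same-numbered deviations were 0.04, 0.13 and 0.14. Each control library correlated best with the Ptf1a cKO library of its own number. Ptf1a cKO libraries 2 and 3 also correlated best with the control of their number. Ptf1a cKO library 1 correlated better with control library 2 (0.08) than with control library 1 (0.04). Whether the numbers pair the samples was not tested. The level per kilobase from the union of exons was kept as a second value, chosen after the data were seen. The values do not carry the depth of each library, and 3 mice in each group limit the precision.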
